A study of Mus musculus with 32 samples.

Results

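The response of brain gene expression to D4F was compared between mice of 2 APOE genotypes. The quantity described throughout is the genotype by D4F interaction, which is the D4F effect in E4/4 mice (D4F minus PBS) minus the D4F effect in E3/3 mice, each averaged over females and males with equal weight. RNA from brain tissue homogenates, selected for mRNA, was sequenced in 32 mice, and all 32 libraries enter the interaction. The groups were E4/4 mice given D4F, E4/4 mice given PBS, E3/3 mice given D4F and E3/3 mice given PBS, with 4 females and 4 males in each (n = 8). The mice are humanized for APOE: E4/4 (APOE4/4) and E3/3 (APOE3/3) animals have both alleles of 1 human form, so all 4 groups carry human APOE. Dosing was daily for 12 weeks, over which the mice aged from 10.5 to 13.2 months, with PBS as the vehicle. The mouse Apoe gene as listed in the table averaged between 2.31 and 2.73 CPM (counts per M counts of the library, where M is the SI prefix mega) in the 4 groups. Brain tissue is a mixture, so fewer cells of a type and less RNA per cell cannot be told apart in any value below.

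APOE is the main apolipoprotein of the brain. Astrocytes release it, the exporters ABCA1 and ABCG1 load it with cholesterol, and neurons and other cells take it up through receptors such as LRP1, while oligodendrocytes use much of the brain's cholesterol for myelin. The APOE4 form carries less lipid than APOE3 and is the strongest common genetic risk factor for late Alzheimer's disease. D4F is a peptide built from D-amino acids that mimics apolipoprotein A-I, the main protein of high-density lipoprotein, and it can stimulate cholesterol efflux onto lipoproteins. An interaction asks whether such a peptide acts on the transcriptome of E4/4 brain differently from that of E3/3 brain.

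Of 57010 genes in the table, 20298 had enough counts to be tested. Libraries held 17.77 to 45.06 M counts. Totals averaged 32.4 ± 9.24 M in E4/4 D4F, 34.7 ± 7.99 M in E4/4 PBS, 29.7 ± 6.39 M in E3/3 D4F and 24.8 ± 6.44 M in E3/3 PBS (SD, n = 8 each). A gap at 26 M counts left 2, 1, 2 and 6 of the 8 libraries of these groups below it, so the E3/3 PBS group was mostly of lower depth. One female E3/3 PBS library, replicate 4, stood apart in its group with 35.84 M counts, against 20.53 to 22.75 M in the other 3. The sex-specific genes Xist and Ddx3y matched the labelled sex in every library.

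No single gene passed the test of the interaction. By edgeR's quasi-likelihood test 0 of 20298 genes (0%) had an adjusted p below 0.05, and the smallest adjusted p was 0.257. At an unadjusted p below 0.05 there were 2113 genes, or 10.4% of those tested, with 951 above 0 and 1162 below 0. The split depended on the scaling: 45% of these genes lay above 0 with TMM scaling and 30.2% with no scaling for composition. By limma-voom 0 genes were called. DESeq2 called 12 genes, 7 above 0 and 5 below 0, in a test that gave an adjusted p to only 1802 genes after its filter on mean count (0.666% of them). Among these were Slc1a3, Fam107a, Os9, B4galnt1, Qdpr and Hsp90b1, described with their levels or lists, and the membrane-bound actin regulator Marcks (−0.49), the translation initiation subunit Eif3a (0.29), the syndecan-binding scaffold Sdcbp (−0.41), Smap2 (0.29) and the ubiquilin Ubqln2 (−0.32). The typical error was larger than for a simple comparison: among genes whose mean log2 CPM was 1 or more, the median standard error of the log2 interaction was 0.122, against 0.0857 for the D4F effect in E4/4 and 0.0863 for that in E3/3.

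This count depended on 1 library. When female E3/3 PBS replicate 4 was left out, edgeR called 294 genes (1.45%), 91 above 0 (0.448%) and 203 below 0 (1%), with a median absolute log2 interaction of 0.432. Leaving out any other single library gave 0 calls. In alternatives chosen after seeing the data, the 294 calls became 0 when the depth class of each library was added as a term. With trends in GC content and transcript length removed, 236 genes were called, 124 of them among the 294. With both E3/3 PBS libraries above 26 M counts left out, 841 were called. This library had the highest total of its group and a summed choroid plexus marker level of 655 CPM, the highest among the 8 E3/3 PBS libraries. Its slope of log2 counts on GC content was 0.000981 per percentage point, against 0.0196 to 0.0320 in the other 3 females of the group. Mitochondrially encoded genes took 5.53% of its counts, against 6.69% to 7.70%, and the 100 highest genes 17.80%, against 19.01% to 20.90%. Which of these bears on the calls was not tested beyond the alternatives above.

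**Figure D1:**
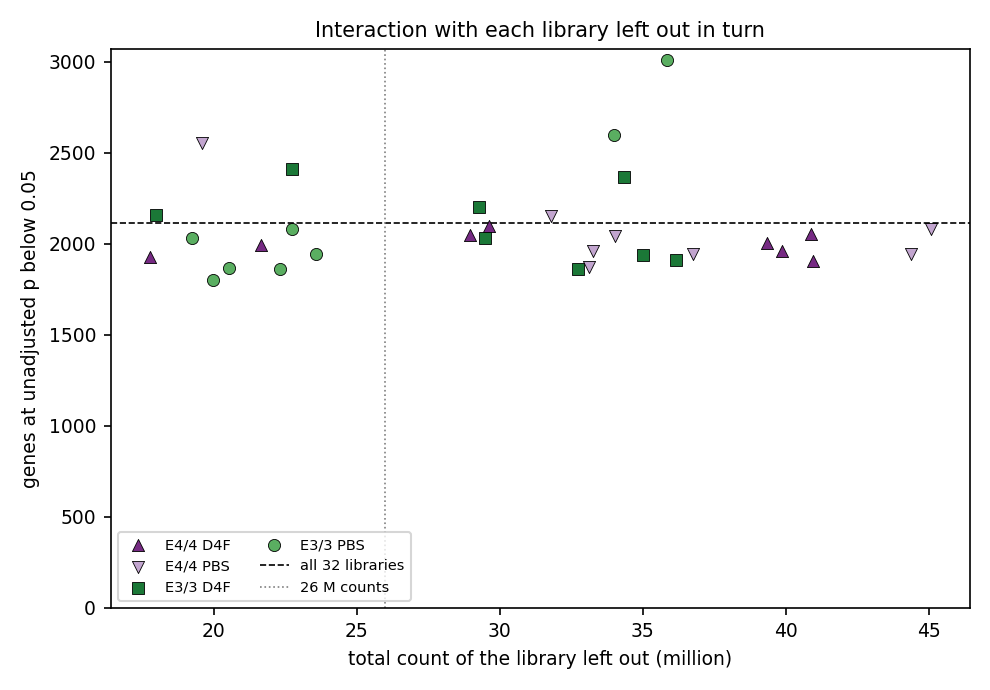
Number of genes at an unadjusted p below 0.05 in the interaction when each of the 32 libraries is left out, against the total count of that library in M. Points are libraries by genotype and treatment, the dashed line is the 2113 genes of the full set, and the dotted line marks 26 M counts. The highest point, 3008 genes, is female E3/3 PBS replicate 4 at 35.84 M counts.

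The interaction is the difference of 2 D4F effects, which gave unequal numbers of calls. In E4/4 brain D4F gave 0 calls (0% of 20298) by edgeR, DESeq2 and limma-voom alike, and 382 genes (1.88%) at an unadjusted p below 0.05 by edgeR. In E3/3 brain edgeR called 659 genes (3.25%), 367 higher (1.81%) and 292 lower (1.44%) under D4F, where DESeq2 called 1359 and limma-voom 514. Each of these fits used 1 estimate of the spread of a gene for all 8 groups, so the counts make no allowance for spreads that differ between the genotypes. Within groups Os9 and Cfl2 spread more in E3/3 than in E4/4 mice, while Ddx10 did not. How this bears on the unequal counts was not tested. The interaction itself, which is the test of a difference between the genotypes, called 0 genes, so none of the 659 could be among its calls. Of the 659, 588 had an unadjusted p below 0.05 in the interaction, where 10.4% of all genes did. The effect in E3/3 is itself part of the interaction, so this count describes the 659 and supports nothing further. The effects in E4/4 and in E3/3 share no library. Across the 14164 genes whose mean log2 CPM was 1 or more they correlated at r = 0.0961 (Spearman's rho 0.0788), and 52.9% of genes had the same sign, as a description over genes that share their libraries and depth.

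**Figure D2:**
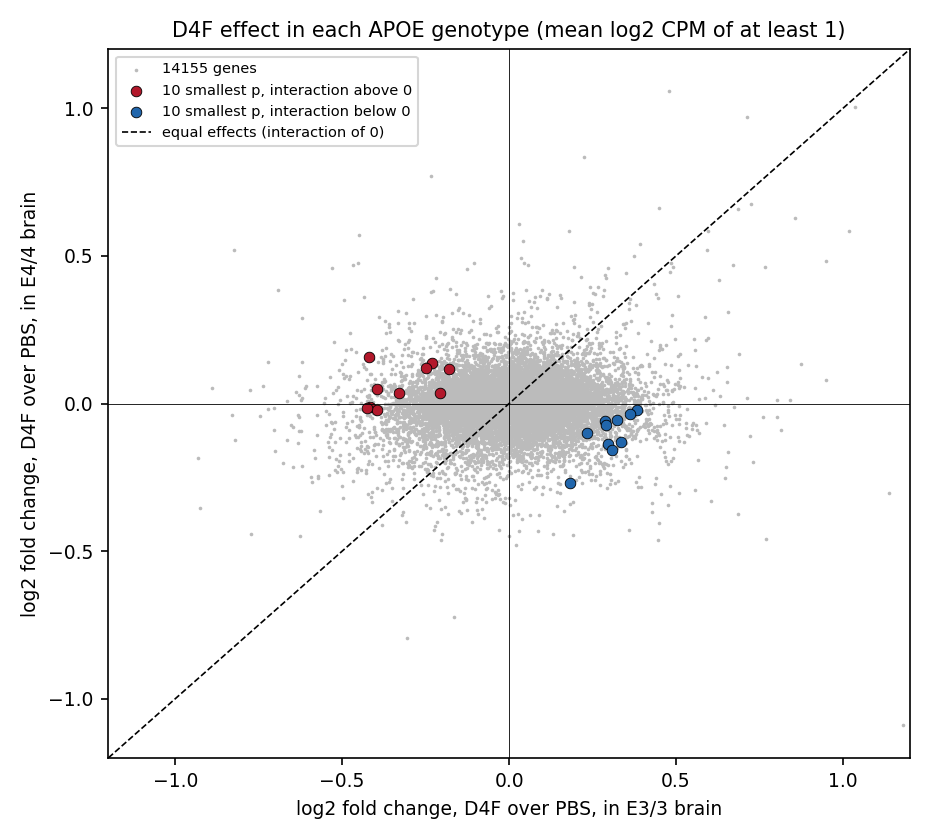
Log2 fold change of D4F over PBS in E4/4 brain (vertical axis) against that in E3/3 brain (horizontal axis) for genes whose mean log2 CPM was 1 or more. Grey points are 14155 genes, 9 more lie outside the axes, and coloured points are the 20 genes with the smallest p, 10 in each direction; these spread along the horizontal axis and lie between −0.27 (Litaf) and 0.16 (Fam107a) on the vertical one.

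The 4 group means were compared to see which group lay apart. Among the 2113 genes at an unadjusted p below 0.05, the group farthest from the mean of the other 3 was E3/3 PBS in 81.9%, E3/3 D4F in 9.61%, E4/4 PBS in 6.11% and E4/4 D4F in 2.41%. Over all genes tested E3/3 PBS was the farthest group in 47.6%. E3/3 PBS was also the group with the lowest mean depth. The share of genes at an unadjusted p below 0.05 was 10.4% in the main fit. It changed little after thinning and was lower with the depth terms and in the depth subsets. Since 6 of the 8 E3/3 PBS libraries lay below 26 M counts, depth class and group cannot be fully told apart. The depth subsets also hold fewer libraries. After libraries were randomly thinned to equal totals, 869 genes lay above 0 and 1103 below 0 at an unadjusted p below 0.05 (10.7% of the genes then tested). With the log2 total of each library as a term, 685 lay above 0 and 884 below 0 (7.73%). With depth class as a term, the genotype by D4F interaction, genes at unadjusted p below 0.05, came to 1246 (6.14%), with 0 called. The libraries of at least 26 M counts alone kept 2 of the E3/3 PBS mice, female replicate 4 and male replicate 3. Every value given below for this subset rests on these 2 mice for E3/3 PBS. Female replicate 4 is the library whose removal gave 294 calls. This subset and the one below 26 M were fitted with sex as an additive term. The subset below 26 M kept 1 E4/4 PBS mouse, female replicate 1. Every value given below for that subset rests on this mouse for E4/4 PBS. In the subset of at least 26 M, 0 genes were called. There 585 genes (2.88%), 199 above 0 and 386 below 0, had an unadjusted p below 0.05. In the libraries below 26 M alone, an alternative added after seeing the data, 1182 genes (5.82%) did and 0 were called.

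The 20 genes with the smallest p, 10 in each direction and all with an adjusted p of 0.257 in edgeR, followed this shape. E3/3 PBS had the highest mean of the 4 groups in all 10 genes above 0 and the lowest in all 10 below 0. In 18 of the 20 the D4F effect was called in E3/3 and in 0 it was called in E4/4. The E4/4 minus E3/3 difference was called under D4F in 0 of the 20, where 0.00493% of all genes were called (1 gene, Dynlt1b), and under PBS in 19 of the 20, where 20.4% of all genes were called. Since the genes were picked by the interaction, these counts describe them and support nothing further.

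Among the genes with a positive interaction, 2 are known from astrocytes. Slc1a3 encodes the glutamate transporter GLAST, which clears glutamate from around synapses (chromosome 15, 8634124 to 8710764 in GRCm38). Its lowest, median and highest levels were 504, 543 and 554 CPM in E4/4 D4F, 432, 525 and 565 CPM in E4/4 PBS, 319, 430 and 499 CPM in E3/3 D4F, and 428, 543 and 701 CPM in E3/3 PBS. The E4/4 D4F mice all lay above the E3/3 D4F mice, while the 2 PBS groups overlapped. The log2 interaction was 0.45 (95% interval 0.21 to 0.68), a 1.36-fold ratio of the 2 D4F effects. Its adjusted p was 0.257 in edgeR and 0.0403 in DESeq2. Fam107a encodes an actin-binding protein abundant in astrocytes and induced by stress hormones. It averaged 406 ± 56.4 CPM in E4/4 D4F, 364 ± 40.2 CPM in E4/4 PBS, 398 ± 73.1 CPM in E3/3 D4F and 529 ± 99.1 CPM in E3/3 PBS (SD, n = 8 each). Its log2 interaction was the largest of the 20, at 0.58 (95% interval 0.29 to 0.87), and its DESeq2 adjusted p was 0.0403. In the libraries of at least 26 M counts alone the interaction was 0.10 for Slc1a3 and 0.28 for Fam107a.

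Scara3, a scavenger receptor class A protein (chromosome 14, 65919394 to 65953935), had the smallest p above 0. Its lowest, median and highest levels were 28.3, 32.9 and 36.9 CPM in E4/4 D4F, 30.7, 33.1 and 35.4 CPM in E4/4 PBS, 24.1, 30.7 and 35.2 CPM in E3/3 D4F, and 34.8, 39.7 and 49.2 CPM in E3/3 PBS. The 3 other groups overlapped one another widely, and only the lower end of E3/3 PBS reached them. The log2 interaction was 0.41 (95% interval 0.22 to 0.60), made up of a D4F effect of −0.01 in E4/4 and −0.43 in E3/3 (edgeR adjusted p = 0.00635 for the effect in E3/3). It was 0.21 in the libraries of at least 26 M counts alone.

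B4galnt1, an enzyme that builds complex gangliosides of neuronal membranes (chromosome 10, 127165225 to 127172330), averaged 128 ± 10.1 CPM in E4/4 D4F, 130 ± 7.95 CPM in E4/4 PBS, 149 ± 16.3 CPM in E3/3 D4F and 196 ± 23.6 CPM in E3/3 PBS (SD, n = 8 each). Within E3/3 PBS the female replicate 4 mouse was at 153 CPM and the other 3 females at 211 to 220 CPM. The log2 interaction was 0.37 with all mice and 0.43 without that library. Os9, a lectin that hands misfolded glycoproteins to degradation in the endoplasmic reticulum, averaged 146 ± 5.92 CPM in E4/4 D4F, 142 ± 8.44 CPM in E4/4 PBS, 156 ± 15.9 CPM in E3/3 D4F and 196 ± 22.2 CPM in E3/3 PBS (SD, n = 8 each), an interaction of 0.36. The rest concerned RNA and chromatin or the cilium: the RNA helicase Ddx10 (0.37), the RNA polymerase III subunit Polr3d (0.40), the histone chaperone subunit Ssrp1 (0.24) and the intraflagellar transport protein Ift122 (0.30). Eif4a-ps4 (0.37) is a pseudogene whose reads can be shared with its parent gene, so its value is uncertain. In the libraries of at least 26 M counts alone the interaction was 0.16 for B4galnt1, 0.155 for Os9, 0.38 for Ddx10, 0.16 for Polr3d, 0.13 for Ssrp1, 0.25 for Ift122 and 0.26 for Eif4a-ps4.

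**Figure D3:**
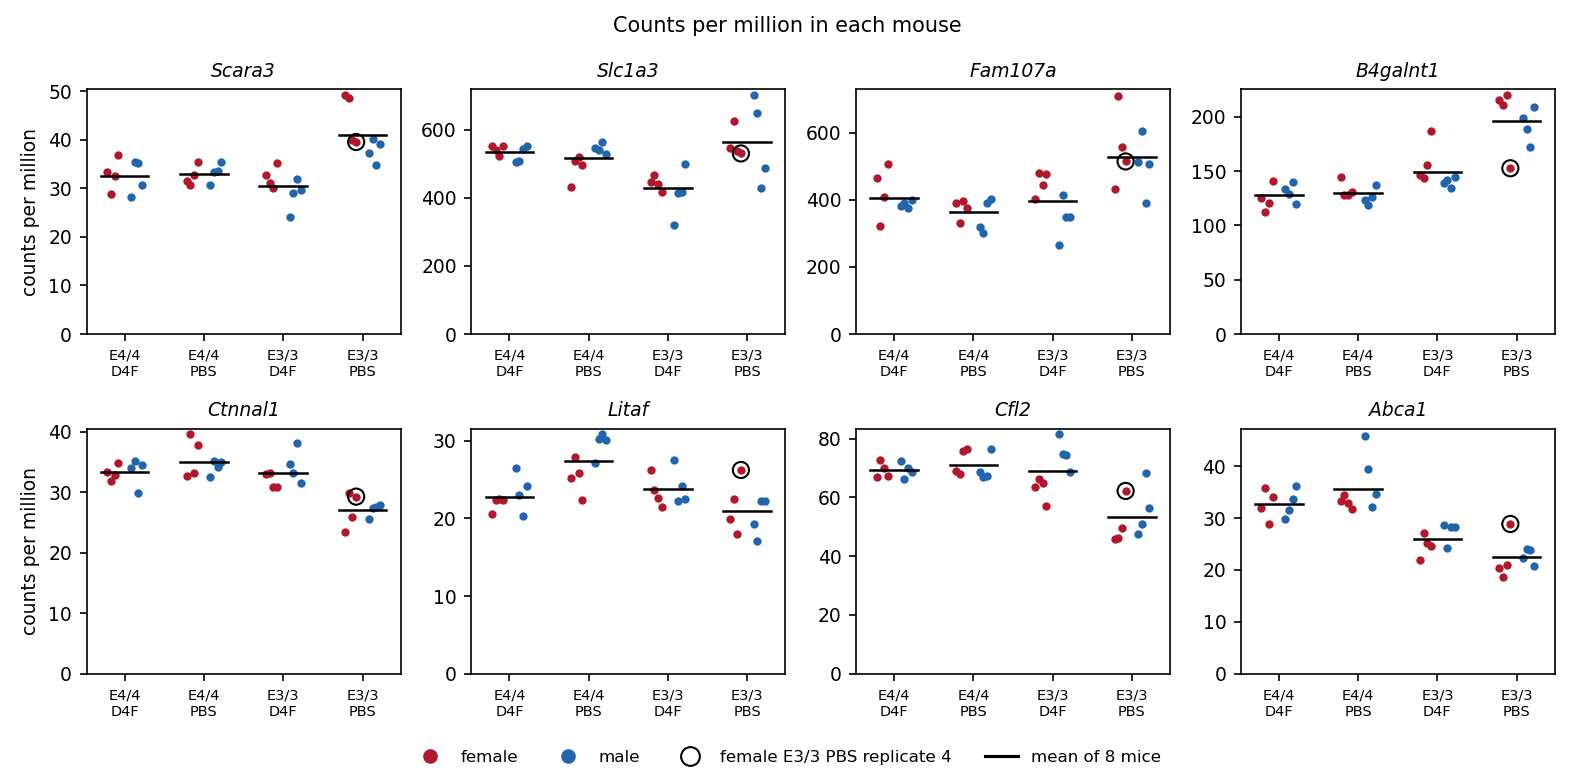
CPM in each of the 32 mice for 8 genes, with the 4 groups on the horizontal axis, females and males in colour, black lines for the mean of 8 mice and a ring around female E3/3 PBS replicate 4. In the upper row the E3/3 PBS mean is the highest of the 4; in the lower row it is the lowest, and the ringed mouse is the highest of its group for Litaf and Abca1.

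Among the genes with a negative interaction, Ctnnal1, which encodes the catenin-related alpha-catulin (chromosome 4, 56810935 to 56865188), had the smallest p of all genes, 6.01e-05 before adjustment in edgeR. Its lowest, median and highest levels were 29.9, 33.6 and 35.1 CPM in E4/4 D4F, 32.6, 34.5 and 39.7 CPM in E4/4 PBS, 30.8, 33.1 and 38.1 CPM in E3/3 D4F, and 23.5, 27.5 and 29.8 CPM in E3/3 PBS. All 8 E3/3 PBS mice lay below every mouse of the other groups. The log2 interaction was −0.36 (95% interval −0.52 to −0.20). It was −0.34 in the libraries of at least 26 M counts alone.

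Cfl2, an actin-severing cofilin, averaged 69.3 ± 2.46 CPM in E4/4 D4F, 71.1 ± 4.26 CPM in E4/4 PBS, 68.9 ± 7.75 CPM in E3/3 D4F and 53.4 ± 8.28 CPM in E3/3 PBS (SD, n = 8 each). Its log2 interaction was −0.40, and −0.20 with trends in GC content and length removed. Litaf, a protein of late endosomes and lysosomes, averaged 22.7 ± 1.98 CPM in E4/4 D4F, 27.4 ± 2.93 CPM in E4/4 PBS, 23.8 ± 2.10 CPM in E3/3 D4F and 20.9 ± 2.96 CPM in E3/3 PBS (SD, n = 8 each), an interaction of −0.45. It was the one of the 20 with its larger D4F effect in E4/4, at −0.27, against 0.18 in E3/3. Others were the ribosome assembly factor Pno1 (−0.47), Qdpr (−0.43), which regenerates the cofactor tetrahydrobiopterin, the amino acid transporter Slc7a6 (−0.41), Phtf2 (−0.38), the Mediator subunit Med23 (−0.35) and the zinc finger gene Zfp160 (−0.33). In the libraries of at least 26 M counts alone the interaction was −0.11 for Cfl2, −0.24 for Litaf, −0.24 for Pno1, −0.20 for Qdpr, −0.185 for Slc7a6, −0.27 for Phtf2, −0.20 for Med23 and −0.23 for Zfp160.

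Of the chosen genes of the APOE pathway and of cell types, 3 had a 95% interval that excluded 0. Abca1, the exporter that loads APOE with cholesterol (chromosome 4, 53030787 to 53159895), had lowest, median and highest levels of 28.8, 32.8 and 36.1 CPM in E4/4 D4F, 31.8, 33.9 and 45.8 CPM in E4/4 PBS, 21.9, 26.1 and 28.6 CPM in E3/3 D4F, and 18.7, 21.6 and 28.9 CPM in E3/3 PBS. The E4/4 D4F mice lay above the E3/3 D4F mice and the E4/4 PBS mice above the E3/3 PBS mice. Its log2 interaction was −0.32 (95% interval −0.55 to −0.10, edgeR adjusted p = 0.298), and it was −0.40 without female E3/3 PBS replicate 4 (adjusted p = 0.0314) and −0.09 in the libraries of at least 26 M counts alone. The E4/4 over E3/3 difference in Abca1 was thus 0.33 under D4F and 0.66 under PBS on the log2 scale. Clu, the apolipoprotein clusterin, averaged 696 ± 54.8 CPM in E4/4 D4F, 686 ± 31.6 CPM in E4/4 PBS, 641 ± 46.9 CPM in E3/3 D4F and 751 ± 118 CPM in E3/3 PBS (SD, n = 8 each). Its interaction was 0.24 (95% interval 0.05 to 0.44, edgeR adjusted p = 0.359), and −0.02 in the libraries of at least 26 M counts alone. Syn1, which tethers synaptic vesicles, had an interaction of 0.38 (95% interval 0.06 to 0.70, edgeR adjusted p = 0.382). For Syn1 it was 0.17 in the libraries of at least 26 M counts alone and −0.12 in those below 26 M.

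For the genes that follow, the 95% interval included 0. The transporter Abcg1 was at −0.03 (−0.20 to 0.14) and the receptor Lrp1 at 0.09 (−0.08 to 0.27). The sterol regulator Srebf2 was at 0.09 (−0.10 to 0.27). Mouse Apoe was at 0.02 (−0.48 to 0.51). The astrocyte filament gene Gfap was at 0.16 (−0.23 to 0.55), the microglial genes Aif1 and Trem2 at −0.10 (−0.38 to 0.18) and −0.04 (−0.35 to 0.27), the myelin gene Mbp at −0.10 (−0.34 to 0.15) and the synaptic Snap25 at −0.16 (−0.56 to 0.25). In the libraries of at least 26 M counts alone Gfap was −0.27 and Snap25 0.17, and in those below 26 M Trem2 was 0.36. A value whose interval includes 0 does not show that the D4F effects were alike.

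By gene list, 0 members were called in any of 38 lists, which are described here by counts at an unadjusted p below 0.05, a level that 4.69% of all genes tested passed above 0 and 5.72% below 0, and by medians, which for all genes was −0.00367. Of 28 genes of mature oligodendrocytes and myelin, 7 passed below 0, 0 passed above 0 and 23 had a negative value, with a median of −0.17. The median D4F effect was −0.14 in E4/4, where all 28 genes were below 0, and 0.03 in E3/3. Aspa, the enzyme that breaks down N-acetylaspartate in oligodendrocytes, was at −0.50, and −0.07 in the libraries of at least 26 M counts alone. The list's summed level ranged from 6196 to 8463 CPM in E4/4 D4F, 6945 to 9176 CPM in E4/4 PBS, 6078 to 8333 CPM in E3/3 D4F and 6478 to 7962 CPM in E3/3 PBS, so all 4 groups overlapped. Its median was −0.20 with trends in GC content and length removed, −0.18 with depth class as a term and −0.08 in the libraries of at least 26 M counts alone. Without female E3/3 PBS replicate 4, 4 of the 28 were called, all below 0, as were 203 of all genes tested (1%). Among the 4 were Aspa, Ugt8a and Tspan2. With depth class added as a term to that fit, 0 genes were called. In the libraries of at least 26 M counts alone Ugt8a was at −0.04 and Tspan2 at −0.10. Of 18 genes of precursors and newly formed oligodendrocytes 1 passed, below 0, Enpp6 at −0.52. In that list 11 genes had a positive value and the median was 0.09.

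The synaptic lists had medians above 0 in all libraries. Of 30 postsynaptic genes, 11 passed above 0 at an unadjusted p below 0.05 and 0 below 0, with a median of 0.18. The scaffold genes Dlgap3 and Dlg4 were at 0.44 and 0.35, and at 0.18 and 0.09 in the libraries of at least 26 M counts alone. The list's median was 0.09 in the libraries of at least 26 M counts and 0.08 in those below 26 M. In the former 0 members passed above 0, where 199 of the 20298 genes tested did. The median D4F effect of the list was 0.00 in E4/4 and −0.16 in E3/3, where 6 members fell by edgeR's adjusted test, as did 1.44% of all genes. Of 33 presynaptic genes, 4 passed above 0 and 0 below, 29 had a positive value and the median was 0.10, with the vesicle protein Vamp2 at 0.28. The presynaptic median was −0.03 in females and 0.28 in males. It was 0.11 in the libraries of at least 26 M counts. In those below 26 M, with 1 E4/4 PBS mouse, it was −0.16 and 26 of the 33 genes lay below 0. Of 22 genes for calmodulin, its kinases and calcineurin, 2 passed above 0, Calm3 (0.41) and Camk2a (0.41). In that list 13 genes had a positive value and the median was 0.05, with −0.09 in females and 0.18 in males. The median was 0.16 in the libraries of at least 26 M counts and −0.23 in those below 26 M. In the receptor list the metabotropic glutamate receptor Grm3 was at 0.39, and 2 of 34 members passed above 0 and 2 below.

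Energy metabolism was divided between lists. Of 25 glycolytic genes, 7 passed above 0 and 0 below 0, with a median of 0.09, and Gapdh and the hexokinase Hk1 were at 0.40 and 0.34. The median was 0.03 with trends in GC content and length removed, with 4 passing above 0, as did 914 of the 20298 genes tested. In the libraries of at least 26 M counts alone it was 0.05, with Gapdh at 0.07. There 0 of the list passed, where 199 of the 20298 genes tested passed above 0. Of 51 nuclear-encoded genes of the respiratory chain, 8 passed below 0 and 0 above, 43 had a negative value and the median was −0.08. That median was −0.02 in females, with 22 of the 51 genes above 0, and −0.18 in males, with 5 above 0. The cytochrome oxidase subunit Cox5a was at −0.42 and the ATP synthase subunit Atp5g3 at −0.44. In the libraries of at least 26 M counts alone the median was −0.06 with 2 genes passing below 0, as did 386 of the 20298 tested. There Cox5a was at −0.12 and Atp5g3 at −0.22. Of 54 cytosolic ribosomal proteins, 11 passed below 0 and 0 above, with Rps20 at −0.51 and Rps29 at −0.51. Ribosomal protein genes have many processed copies, so reads can be split among them and single values are uncertain. The list's median was 0.10 in females and −0.27 in males. In both sexes together it was −0.08, and −0.15 in the libraries of at least 26 M counts alone. There 10 of the 54 passed below 0, as did 386 of the 20298 genes tested. In the libraries below 26 M counts the list's median was −0.04. Of 15 mitochondrially encoded genes 1 passed, mt-Rnr2 at −0.39, and mt-Rnr2 was −0.09 with trends in GC content and length removed.

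The stress and vascular lists had medians above 0 in all libraries. Of 32 genes for chaperones, heat shock and the unfolded protein response, 7 passed above 0 and 0 below, with a median of 0.10. They included the endoplasmic reticulum chaperone Hsp90b1 (0.26, DESeq2 adjusted p = 0.0403) and the disulfide isomerase Pdia4 (0.26). Of 22 astrocyte genes, 5 passed above 0 and 0 below, with a median of 0.10, including Slc1a3 and the aldolase Aldoc (0.27). The astrocyte median was −0.06 in the libraries of at least 26 M counts alone. Of 22 endothelial genes 5 passed above 0, among them the VEGF receptor Flt1 (0.39) and von Willebrand factor Vwf (0.64), with a list median of 0.11. In the libraries of at least 26 M counts alone that median was 0.08 and 1 gene passed above 0, as did 199 of the 20298 tested. There Flt1 was at 0.32 and Vwf at 0.04. Of 22 genes of mural cells and fibroblasts 21 had a positive value with a median of 0.28, but 1 passed, and the median was −0.33 in the libraries of at least 26 M counts alone. The list's summed level reached 2764 CPM in 1 E3/3 PBS library, against a median of 988 CPM in that group. Without female E3/3 PBS replicate 1 the list's median interaction was 0.00941.

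Lipid lists bear most directly on APOE and D4F. Of 24 cholesterol synthesis genes 2 passed above 0, the mevalonate enzymes Mvk (0.22) and Pmvk (0.24), and the median was 0.06. Pmvk was −0.04 in the libraries below 26 M counts. Of 21 genes of cholesterol export and LXR targets 1 passed, Abca1, and the median was −0.01. Of 22 apolipoprotein and receptor genes 4 passed above 0, with Lrp5 at 0.41 and Clu at 0.24. Their median was 0.08, and −0.03 in the libraries of at least 26 M counts alone, where 14 of the 22 lay below 0. Of 24 genes of fatty acid oxidation 2 passed above 0, Hadha (0.28) and Cpt1a (0.29). Cyp46a1, which turns over brain cholesterol, was at 0.19 and did not pass. Of 30 genes next to Apoe on chromosome 7, 2 passed above 0, Ppp1r37 (0.31) and Opa3 (0.20). Their median was 0.11, and −0.05 in the libraries of at least 26 M counts alone. Of the 24 genes of amyloid precursor, tau and their degradation, 3 passed above 0 and 1 below, with the tau kinase Gsk3a at 0.32 and the presenilin Psen2 at 0.26. Of 24 microglial and complement genes 1 passed, C1qa at 0.36, and C1qa was −0.12 in the libraries of at least 26 M counts alone.

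The other lists gave the following counts. Of 26 immediate early genes 1 passed above 0, the transcription factor Klf4 (0.56), and of 22 clock genes 1 passed each way, Nr1d1 (0.38) and Clock (−0.26). Of 31 proteasome genes 2 passed above 0, with Psmd7 at 0.27, and 3 below, with Psmb4 at −0.39. Of 23 NRF2 target genes 1 passed above 0, the NRF2 inhibitor Keap1 (0.20), and 2 below, with glutathione reductase Gsr at −0.27. Of 33 lysosome genes 2 passed above 0 and 1 below. None of 28 interferon and antigen presentation genes passed, nor of 33 potassium channel genes, 20 genes of GABAergic interneurons, 20 of striatal neurons, 13 of cerebellum and hindbrain or 14 of ependyma. Single genes passed for excitatory neurons (1 of 23), hypothalamus (1 of 21), thalamus (Lef1, 0.46), olfactory bulb (Kctd12, −0.31), blood (the neutrophil gene S100a8, −1.98) and choroid plexus (Cldn1, −0.80, and 0.17 in the libraries below 26 M counts). Of the 21 choroid plexus genes 20 had a negative value in all libraries, with a median of −0.41. That median was 0.16 with depth class as a term, 0.14 in the libraries of at least 26 M counts, 0.71 in those below 26 M and 0.23 without male E3/3 D4F replicate 3. Several regional lists had medians of opposite sign in the sexes, such as 0.41 in females and −0.32 in males for striatal neurons and −0.21 in females and 0.37 in males for excitatory neurons. How the tissue was dissected is not given in the sources used here.

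**Figure D4:**
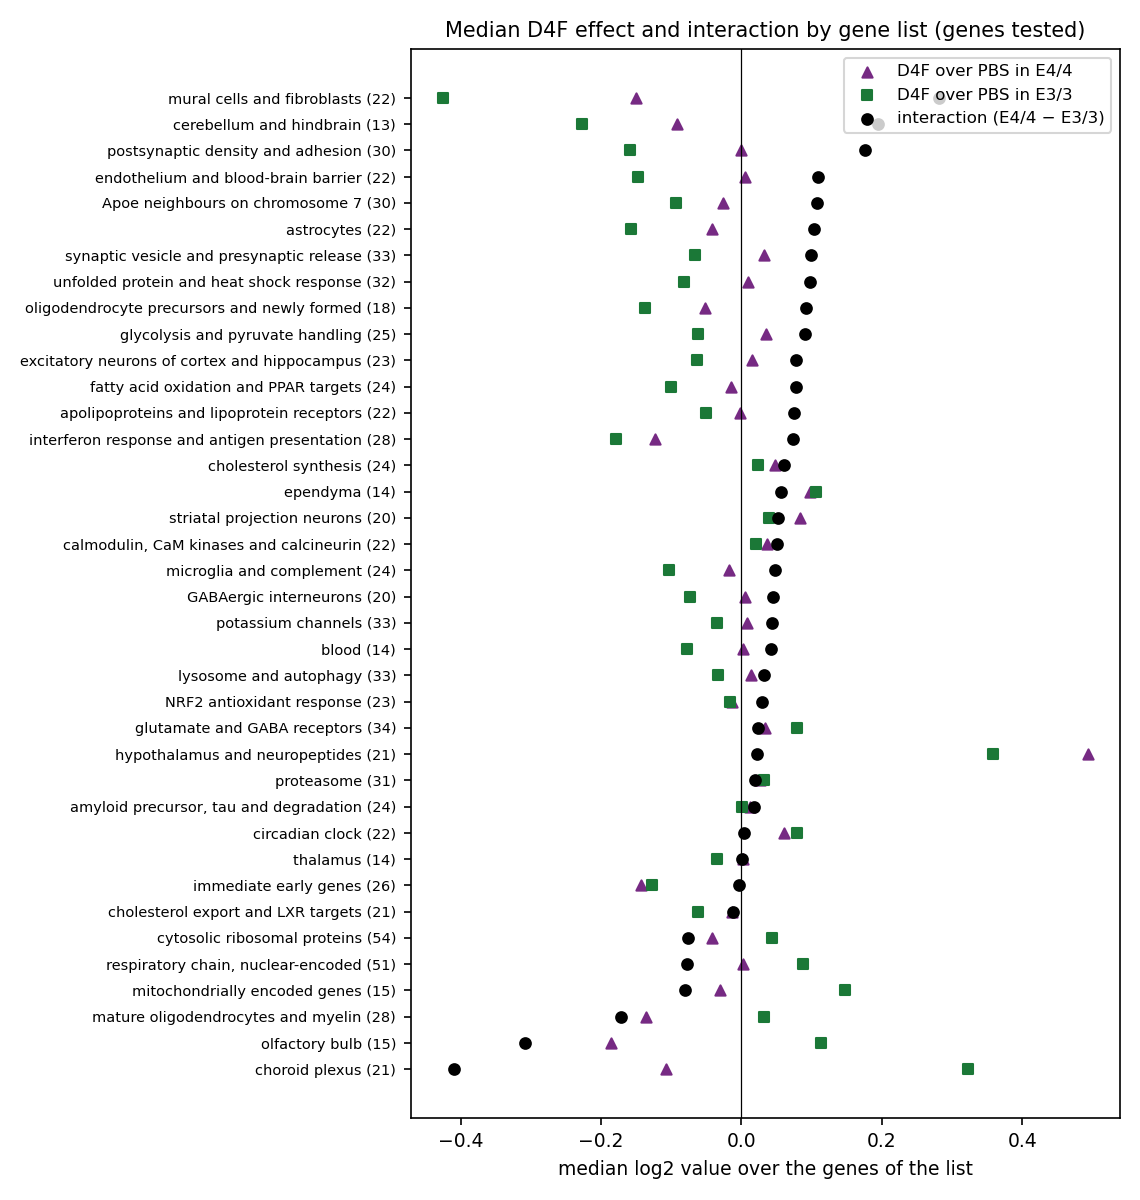
Median log2 values over the genes of 38 lists, with the number of genes tested in brackets: the D4F effect in E4/4 (triangles), the D4F effect in E3/3 (squares) and their interaction (circles). The circles run from −0.41 for choroid plexus to 0.28 for mural cells and fibroblasts; in the libraries of at least 26 M counts alone, not plotted, these 2 medians were 0.14 and −0.33. In most lists the triangles lie nearer to 0 than the squares.

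The interaction was next set out in each sex, since female and male mice share no library. In females edgeR called 0 genes (0%), with 1219 (6.01%) at an unadjusted p below 0.05, and DESeq2 and limma-voom called 0. Leaving out female E3/3 PBS replicate 4 gave 37 calls in females (0.182%), all below 0. In males edgeR called 0 genes (0%), with 1858 (9.15%) at an unadjusted p below 0.05, and DESeq2 and limma-voom called 0. Of the genes at an unadjusted p below 0.05 in each sex, 176 were shared. Of these 150 had the same direction, or 12.3% of the female and 8.07% of the male genes. By direction, 514 genes lay above 0 and 705 below 0 in females, and 922 above 0 and 936 below 0 in males, of the 20298 tested. Across the 14164 genes whose mean log2 CPM was 1 or more, the 2 interactions correlated at r = −0.116 (rho 0.0901) and 55.9% had the same sign. All 20 genes with the smallest p had the same sign in females and males, which choosing them by the average of the sexes favours, and their 95% intervals excluded 0 for 16 genes in females and for 20 in males. Scara3 was at 0.47 in females and 0.35 in males, and Ctnnal1 at −0.35 in females and −0.38 in males.

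**Figure D5:**
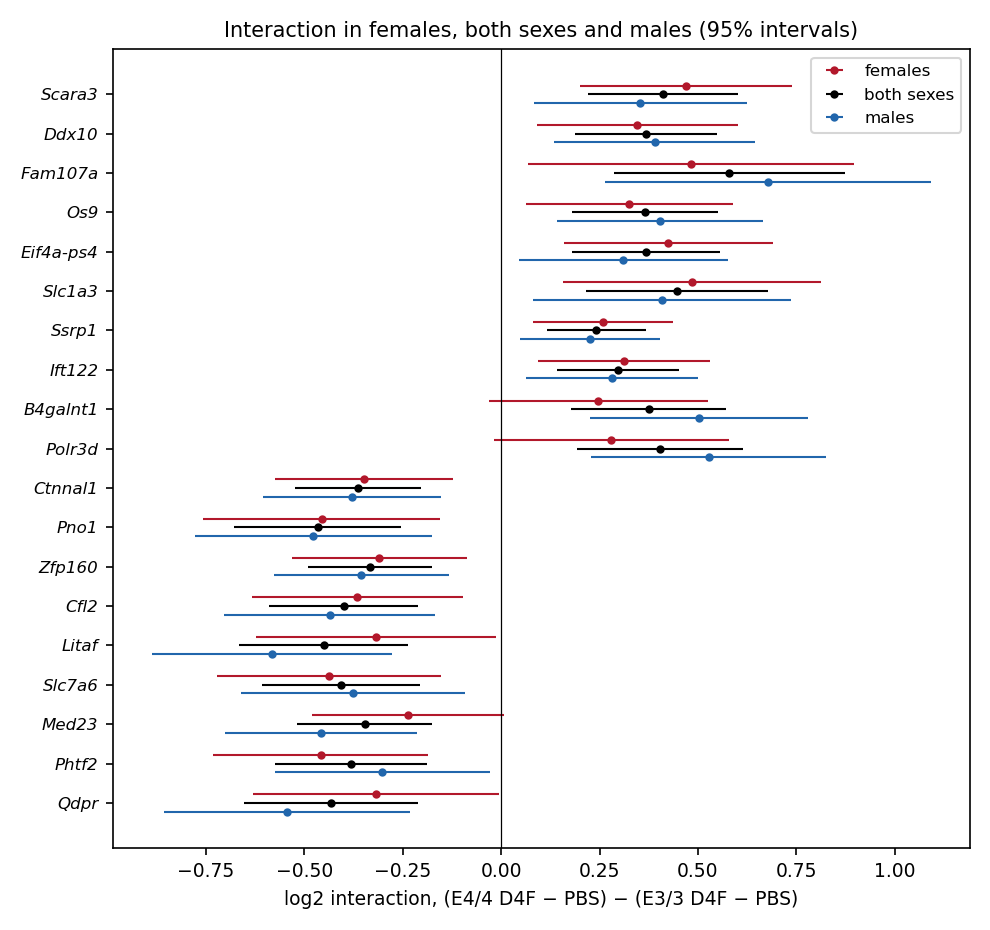
Log2 interaction with 95% intervals for 19 of the 20 genes with the smallest p, in females (red), both sexes (black) and males (blue). For each gene the 3 values lie on the same side of 0, between 0.24 and 0.58 in size for both sexes together.

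The genes with the smallest p within females included the kinase Tec (1.56 in females and −0.09 in males), Igkc (4.97 and −3.24), Lama2, a laminin chain (0.55 and 0.08), Bcl6b (1.12 and 0.18) and Eef2kmt (0.77 and −0.14) above 0. Below 0 they were Sprtn (−0.43 in females and −0.14 in males), Crebzf (−0.49 and −0.02), Ap3s1 (−0.48 and −0.09) and Mtf2 (−0.64 and −0.27). Within males they included Pced1a (0.52 in males and 0.12 in females), Spred3 (0.59 and 0.00) and Zswim4 (0.55 and 0.16) above 0. Below 0 they were Rpl39 (−0.90 in males and −0.29 in females), Rpl7a-ps5 (−1.29 and −0.22) and Tmbim4 (−0.57 and −0.23). None had an adjusted p below 0.05 in its sex in edgeR.

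Whether the interaction itself differed between the sexes was tested directly. For the female minus male difference edgeR called 0 genes (0%), with 848 (4.18%) at an unadjusted p below 0.05, limma-voom called 0 and DESeq2 called 3 (0.0148%), namely Ttr, Igkc and Tmem72. Ttr, the thyroid hormone carrier transthyretin made by the choroid plexus, had an interaction of 6.73 in females and −9.19 in males (edgeR adjusted p = 0.905 for the difference). Its levels varied by orders of magnitude within groups: the lowest, median and highest were 2.08, 68.9 and 843 CPM in E4/4 D4F, 2.31, 13.3 and 1317 CPM in E4/4 PBS, 1.03, 3.95 and 1269 CPM in E3/3 D4F, and 1.94, 4.37 and 239 CPM in E3/3 PBS. In each group the highest mice lay far above the rest, and all groups overlapped. The choroid plexus list moved with it, with a median interaction of 1.77 in females and −2.83 in males, and its summed level ranged from 267 to 1356 CPM in E4/4 D4F, 249 to 1890 CPM in E4/4 PBS, 240 to 1854 CPM in E3/3 D4F and 246 to 655 CPM in E3/3 PBS. The amount of choroid plexus in a sample and expression per cell cannot be told apart. Igkc, an immunoglobulin light chain gene of plasma cells, reached 22.6 CPM in 1 E4/4 D4F female, 11.7 CPM in 1 E4/4 PBS male and 14.3 CPM in 1 E3/3 PBS female, against medians of 1.14 CPM in E4/4 D4F, 1.58 CPM in E4/4 PBS, 1.18 CPM in E3/3 D4F and 0.996 CPM in E3/3 PBS.

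Base composition also moved with the interaction. Across the genes with a GC value and a mean log2 CPM of at least 1, the log2 interaction correlated with GC content at r = 0.331, against −0.0570 for the D4F effect in E4/4 and −0.397 for that in E3/3, over genes that share their libraries. The median interaction was −0.17 for genes below 40% GC and 0.08 for genes of at least 60%. The slope of log2 counts on GC content, in log2 per percentage point, averaged −0.00729 ± 0.00411 in E4/4 D4F, −0.00651 ± 0.00348 in E4/4 PBS, 0.00113 ± 0.00780 in E3/3 D4F and 0.0127 ± 0.0121 in E3/3 PBS (SD, n = 8 each). The interaction of this slope had p = 0.0556 in a two-sided permutation test within genotype and sex (adjusted p = 0.334 over 6 measures), and that of the total count had p = 0.184 (adjusted p = 0.536). For the share of mitochondrially encoded reads, the share of the 100 highest genes, the slope on transcript length and the number of genes detected, the adjusted p in the same permutation test ran from 0.536 to 0.912. The part of GC content in the gene results was not tested beyond the values given with its trend removed.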

How the data were processed

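Gene counts were deposited by the authors as whole-number counts per gene for 32 libraries. A kit made for fatty tissue gave the RNA, and the mRNA libraries were stranded, per the labels' protocols. Trimmomatic, HISAT2, featureCounts and the GRCm38 build are named, without versions, per the submitters' processing notes; whether counting used strand is not given in the sources used here, so overlapping and antisense genes are uncertain.

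From the counts, genes were kept by edgeR's filter (count minimum of 10, total minimum of 15), scaled by TMM and fitted with edgeR 4.0.16 in R 4.3.3 (quasi-likelihood F test, robust) with 1 coefficient for each of the 8 groups of genotype, sex and treatment. P-values were adjusted by Benjamini-Hochberg over all 20298 genes and called below 0.05. Intervals are 95%. Fitted log2 values use edgeR's default prior count, while the log2 CPM values of single libraries, used for the group means, take a prior count of 2. CPM values divide by TMM-scaled totals. The fit was tested on simulated counts. DESeq2 1.42.0 and limma 3.58.1 (voom) were alternatives, as were other scalings and filters, depth terms, depth classes, thinning, offsets removing GC and length trends (available for 94.8% of genes tested), a replicate block and each library left out. For the interaction averaged over the sexes DESeq2 gave an adjusted p to 1802 genes and left the rest NA; within each sex and between the sexes it gave one to 20295. Coordinates, GC content and lengths come from GENCODE M21 (GRCm38). The labels do not say more of how mice were sampled, so p-values measure the spread between these mice. The deposited totals ran from 17.77 to 45.06 M counts and were lowest on average in E3/3 PBS.

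The named genes were, in each direction, the 10 with the smallest p among genes whose mean log2 CPM was 1 or more, up to 2 list members by smallest p, 14 chosen genes, and the 5 with the smallest p each way within each sex and between the sexes. Not every gene so picked is printed, a choice made with values known; some are not reported here. Genes named from the fit without 1 library and from DESeq2 were chosen by those calls. The members and lists were chosen with earlier results of these data known. Library measures were compared by a two-sided permutation test with 100000 relabellings of D4F and PBS within genotype and sex. Summed marker levels are given without a test.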

Additional observations from a re-analysis of the deposited data

Results flagged for a closer look

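In groups of 4 mice, 36 genes and 6 library measures were searched for a highest or lowest mouse whose gap to the nearest of the others exceeded Dixon's 95% critical share of the group's range. Of 336 groups 31 were marked (9.23%), where chance marks about 1 in 20. No cause was tested.

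Female E3/3 PBS replicate 4, the library whose removal gave 294 calls, was marked for 4 values. Its total was 35.84 M counts, against 20.53 to 22.75 M in the others. B4galnt1 was low at 152.7 CPM, against 210.6 to 220.3 CPM. Slc7a6 was high at 45.1 CPM, against 31.06 to 33.42 CPM, and Ttr was high at 238.6 CPM, against 1.939 to 9.278 CPM.

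Female E3/3 PBS replicate 1 was marked for 3 genes. Gfap was high at 228 CPM, against 111.5 to 122.2 CPM. Snap25 was low at 1659 CPM, against 3028 to 3101 CPM, and Srebf2 was low at 212.7 CPM. Male E3/3 PBS replicate 1 was low for Ctnnal1 at 25.54 CPM and high for Ttr at 16.09 CPM.

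Among E4/4 D4F mice, male replicate 2 had the lowest total, 17.77 M counts, against 39.34 to 40.88 M in the others. Ddx10 was high at 20.01 CPM in male replicate 4 and Zfp160 at 25.61 CPM in male replicate 3. In females Litaf was low at 20.5 CPM in replicate 1, Med23 was high at 51.1 CPM in replicate 4 and Igkc was high at 22.64 CPM in replicate 3. The slope on GC content was low in female replicate 2, at −0.01652 log2 per percentage point.

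Among E4/4 PBS mice, male replicate 1 had the highest total, 45.06 M counts, and 27688 genes with a count. In the same mouse Abcg1 was high at 88.03 CPM and Syn1 low at 408 CPM. Female replicate 1 was high for B4galnt1 at 144.4 CPM and for Lrp1 at 508.5 CPM. Ttr was high at 211.9 CPM in female replicate 3, and Srebf2 was low at 193.2 CPM in male replicate 3.

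Among E3/3 D4F mice, male replicate 1 was low for Polr3d at 16.49 CPM, high for Pno1 at 24.56 CPM and high for the share of counts in the 100 highest genes, at 21.93%. Abca1 was low at 24.24 CPM in male replicate 2, and Ttr was high at 1269 CPM in male replicate 3, against 1.028 to 11.79 CPM. Female replicate 4 was high for Ssrp1 at 103.9 CPM and for the mitochondrially encoded share at 8.012%.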

How the results depend on the processing

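The count of calls in the interaction was 0 under every alternative with all libraries except DESeq2, which called 12, and DESeq2 called 3 for the difference between the sexes. Over the 32 alternatives with 1 library left out, the count ran from 0 to 294 for the interaction and from 0 to 37 in females, where female E3/3 PBS replicate 4 gave both highest values. With that library left out and GC and length trends removed, 236 genes were called in the interaction and 6 in females. With both E3/3 PBS libraries above 26 M counts left out, 841 were called in the interaction, 132 in females and 1 in males. These added alternatives were chosen after seeing the data, and the causes were not tested. Replicate numbers did not pair the mice: deviations of same-numbered libraries correlated at −0.00217 on average over 112 pairs, 9 of 32 libraries correlated best with their own number, and the replicate block gave 0 calls. With it, in the genotype by D4F interaction, genes at unadjusted p below 0.05 numbered 2087.

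Some values changed sign, those of Clu, Syn1, Pmvk, C1qa and Cldn1 among genes at an unadjusted p below 0.05. Apoe, at 0.02, was −0.0196 with no composition scaling, −0.0515 with depth class as a term, −0.071 with the log2 total as a term, −0.252 in libraries of at least 26 M counts, −0.0201 with GC and length trends removed and −0.0104 with the replicate block added to that. With female E3/3 PBS replicate 4 left out it was −0.0343 with depth class and −0.0289 with GC and length removed. With both E3/3 PBS libraries above 26 M counts left out Trem2 was 0.0221. In libraries below 26 M counts, with 1 E4/4 PBS mouse, Abcg1 was 0.077, Srebf2 −0.0436, Trem2 0.363, Syn1 −0.118, Pmvk −0.0442 and Cldn1 0.173. In libraries of at least 26 M counts Clu was −0.0177, Gfap −0.267, Snap25 0.168 and C1qa −0.118. Srebf2 was −0.0123 with GC and length removed, −0.0103 with the replicate block added and −0.0273 with female E3/3 PBS replicate 4 also left out, where Snap25 was 0.000156. With 1 library left out, Apoe ran from −0.11 to 0.147, Abcg1 from −0.0666 to 0.00811, Gfap from −0.000748 to 0.227 and Trem2 from −0.127 to 0.0258.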
